A study of Mus musculus with 6 samples.

Results

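The 8 genes *Six4*, *Eya1*, *Eya2*, *Neurog1*, *Neurog2*, *Neurod1*, *Pou4f1* and *Isl1* mark successive steps from the cranial placodes to the first sensory neurons of the head. They were taken by symbol from the 24421 gene symbols of a table of read counts, and all 8 were present. The table holds 3 wild-type (WT) and 3 heterozygous mutant (Het) RNAseq libraries of mouse heads at E9.0, and each library was made from 2 pooled heads of somite-matched embryos from different litters. Het embryos carried the *Snrpb* loxP/+ allele, in which exons 2 and 3 are flanked by loxP sites, and the *Wnt1-Cre2* transgene, and are named *Snrpb* ncc+/- by the study. WT embryos were labelled *Snrpb* +/+. The labels name both C57BL/6 and CD1 for every library, and whether WT embryos carried the transgene is not given in the sources used here.

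*Wnt1-Cre2* acts in neural crest cells and in the neural tube, so placodal ectoderm, head mesoderm and endoderm keep both copies of *Snrpb*. A library therefore mixes heterozygous and unrecombined cells. In such bulk samples, fewer cells of a type and less RNA per cell cannot be told apart. *P*-values between genotypes here set a difference against the spread between these pools.

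Cranial placodes are thickenings of head ectoderm that give rise to the lens, the olfactory and otic epithelia and many neurons of the cranial sensory ganglia. *Six4* and its relatives and the *Eya* genes form a transcriptional network in the preplacodal region, in which the former encode proteins that bind DNA and the latter their coactivators, which are also phosphatases. Neurogenin transcription factors then select neuronal precursors, *Neurog1* mainly in the trigeminal and otic ganglia and *Neurog2* mainly in the epibranchial ganglia. *Neurod1* acts downstream of them as cells leave the epithelium, and *Pou4f1* and *Isl1* are homeodomain factors of the differentiating sensory neurons. None of the 8 genes is restricted to placodes. *Eya1* and *Six4* are also active in head mesoderm and pharyngeal arches, the neurogenins, *Neurod1* and *Pou4f1* in parts of the neural tube, and *Isl1* in motor neurons, pharyngeal tissue and cardiac progenitors.

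Library totals ranged from 36378803 to 58946111 counts in WT and from 42398206 to 74909774 in Het, and the 8 genes had between 26 and 4619 counts in a library. Levels are given in CPM, the counts divided by library size on a common scale, with library sizes adjusted with edgeR's TMM method. *Snrpb* itself lay between 414.2 and 438.2 CPM in WT and between 412.4 and 436.5 CPM in Het. Its log2 fold change was −0.0036 (adjusted *P* = 0.990, edgeR), so its counts did not set the genotypes apart. For embryos with deletion by *β-actin-Cre*, the paper reports a shorter transcript and a significant fall in *Snrpb* by quantitative RT-PCR. Those embryos were younger and carried another Cre than the Het embryos here. Counts per gene do not separate the shorter transcript from the intact one. WT replicate 1 stood apart from the other 5 libraries. All 8 tested genes of a neural progenitor list were highest in it, and all 8 of a pharyngeal and second heart field list and all 7 tested genes of a cardiac muscle list were lowest. It was the highest of the 6 libraries for 24.7% of the 15584 tested genes and the lowest for 24.6%. Genes of the posterior trunk, which should be nearly absent from heads, summed to between 3.54 and 6.13 CPM. The 4 Y-linked genes summed to between 62.8 and 120.04 CPM in WT and between 111.0 and 228.3 CPM in Het. These ranges overlapped and 0 of the 4 genes were called, with all 4 higher in fitted level in Het (median log2 fold change 0.85). For 1 of the 4, *Uty*, every Het library (27.3 to 51.6 CPM) lay above every WT library (11.7 to 24.4 CPM). Over all tested genes, 15.2% were apart in either direction. Whether the sex make-up of the pools differed between genotypes was not tested.

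No member of the pathway was called between genotypes. The threshold was a Benjamini-Hochberg adjusted *P* of 0.05 over all tested genes with edgeR's quasi-likelihood test, at which 0.00642% of the 15584 tested genes, a single gene, passed. Among the 8 members, 0 passed, 0 passed an unadjusted *P* of 0.05 (8.43% of all tested genes did), and in 0 did all Het libraries lie on the same side of all WT libraries (15.2% of all tested genes did). DESeq2, run on the same counts, called 0.651% of the 12908 genes it gave an adjusted *P*, with 0 of the 8 members among them and 0 at an unadjusted *P* of 0.05. Of the 8 members, 6 had a lower fitted level in Het, against 49.8% of all tested genes, and the median log2 fold change was −0.12 against 0.00041 over all tested genes.

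**Figure D1:**
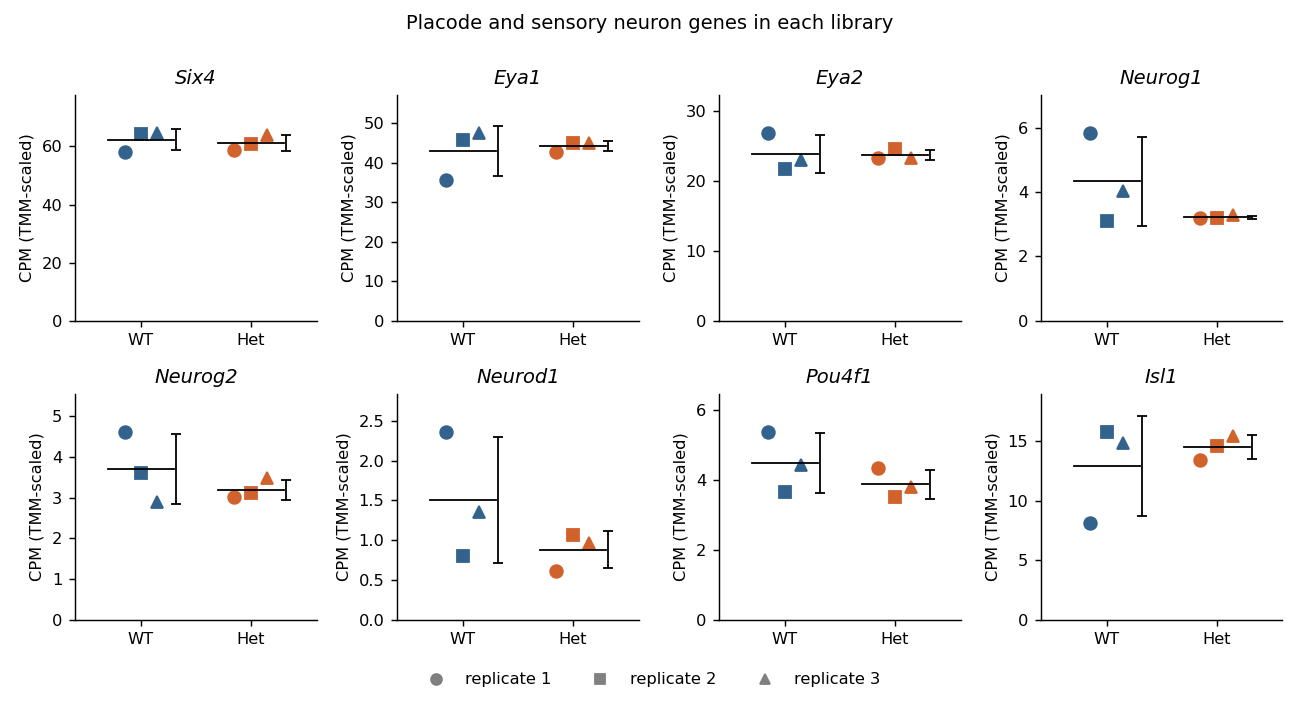
Level of each of the 8 genes in CPM (vertical axes, each from 0) in WT (blue) and Het (orange) libraries. Marker shapes give the replicate number, horizontal lines the mean and bars the SD over 3 libraries. WT replicate 1 (first blue circle) is the highest library for *Eya2*, *Neurog1*, *Neurog2*, *Neurod1* and *Pou4f1* and the lowest for *Six4*, *Eya1* and *Isl1*.

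Compared per length of exon sequence, the placode network genes were the most abundant, followed by *Isl1* and the neurogenins, with *Pou4f1* and *Neurod1* the least. Averaged over the 6 libraries, the level was 8.02 CPM per kb for *Eya2* (range 7.32 to 9.08), 5.69 for *Six4* (5.37 to 5.97) and 5.59 for *Eya1* (4.57 to 6.10). It was 3.46 CPM per kb for *Isl1* (2.05 to 3.98), 2.24 for *Neurog1* (1.85 to 3.47) and 1.55 for *Neurog2* (1.30 to 2.07). The lowest were *Pou4f1* at 0.896 CPM per kb (0.752 to 1.15) and *Neurod1* at 0.437 (0.226 to 0.866). The ranges of *Six4* and *Eya1*, of *Isl1* and *Neurog1*, of *Isl1* and *Neurog2*, of *Neurog1* and *Neurog2* and of *Pou4f1* and *Neurod1* overlapped, so the order within these pairs was not separated by the spread of the libraries. Among 14042 tested protein-coding genes, *Eya2* stood at percentile 62.9 and *Neurod1* at percentile 17.5 of the level per kb.

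The DNA-binding member of the placode network, *Six4*, had the smallest biological coefficient of variation of the 8, at 0.0605, which is the spread between libraries beyond counting noise. It lies on chromosome 12 of mm10 from 73099609 to 73113456 and was measured at 58.3, 64.2 and 64.8 CPM in WT replicates 1 to 3 and at 58.6, 60.8 and 64.1 CPM in Het replicates 1 to 3. The lowest library of either genotype was replicate 1, and the groups overlapped. The WT mean was 62.4 ± 3.59 CPM and the Het mean 61.1 ± 2.73 CPM (SD, *n* = 3 each). The log2 fold change of −0.029 had a standard error of 0.057 and a 95% interval from −0.16 to 0.10 (adjusted *P* = 0.911, edgeR), which on the linear scale spans a Het level of 0.896 to 1.07 times WT.

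*Eya1*, a coactivator of *Six4* and its relatives that is needed for ear and cranial ganglion development, lies on chromosome 1 from 14168954 to 14310235. Its levels were 35.7, 45.7 and 47.6 CPM in WT and 42.8, 45.1 and 44.9 CPM in Het. WT replicate 1 was the lowest library, at 0.765 of the mean of the other WT libraries, and the Het libraries fell between it and the other two. With all libraries the log2 fold change was 0.040 (standard error 0.10, 95% interval −0.19 to 0.27, adjusted *P* = 0.933, edgeR) and −0.079 without WT replicate 1.

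*Eya2*, its paralogue, lies on chromosome 2 from 165595032 to 165771727 and went the opposite way in WT replicate 1. It was measured at 26.9, 21.7 and 22.9 CPM in WT and at 23.3, 24.5 and 23.2 CPM in Het, so that WT replicate 1 was the highest library. A log2 fold change of −0.0064 was fitted with all libraries (standard error 0.081, 95% interval −0.19 to 0.18, adjusted *P* = 0.991, edgeR) and 0.084 without WT replicate 1. The sign for *Eya1* was set by that library, while the value for *Eya2* lay so near 0 that its sign also changed without Het replicate 1 (0.0048) and without Het replicate 3 (0.0020). The intervals of the 3 network genes exclude a Het level below 0.875 or above 1.21 times WT.

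The other genes listed from the *Six4*, *Eya1* and *Dach1* families, 8 in all and all tested, gave 0 calls, with 4 higher and 4 lower in Het. *Eya3*, a widely expressed relative of *Eya1*, had separate groups. It was measured at 95.3, 92.6 and 93.7 CPM in WT and at 88.5, 84.0 and 85.5 CPM in Het, with every Het library below every WT library, a pattern that 6.92% of all tested genes showed in this direction. Its log2 fold change of −0.13 had an unadjusted *P* of 0.0120 and an adjusted *P* of 0.441 (edgeR), and was −0.12 without WT replicate 1.

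Genes of placode identity, which mark single placodes such as the otic (*Pax2*, *Pax8*), were spread evenly about zero. Of 26 listed, 25 were tested, 0 were called, 13 were higher and 12 lower in Het, and the median log2 fold change was 0.0023 (0.00097 without WT replicate 1). *Tbx2*, active in otic and optic tissue and in the heart, was measured at 5.27, 6.66 and 8.81 CPM in WT and at 8.74, 9.70 and 13.1 CPM in Het (log2 fold change 0.61, adjusted *P* = 0.514, edgeR), and its groups overlapped.

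The neurogenic genes were lower on average in Het, and most of that difference was in WT replicate 1. *Neurog1*, the proneural factor of the trigeminal and otic neurons, lies on chromosome 13 from 56250478 to 56252163. The promoter bases of *Neurog1*, *Neurog2*, *Neurod1* and *Pou4f1* are shown here because these 4 genes were high together in WT replicate 1. They come from RefSeq windows on GRCm38.p6, of which 250 bases lie upstream of a start site, less any bases that the gene annotation places inside a coding gene on the same strand.
Neurog1 upstream, chr13:56252181-56252430, minus strand: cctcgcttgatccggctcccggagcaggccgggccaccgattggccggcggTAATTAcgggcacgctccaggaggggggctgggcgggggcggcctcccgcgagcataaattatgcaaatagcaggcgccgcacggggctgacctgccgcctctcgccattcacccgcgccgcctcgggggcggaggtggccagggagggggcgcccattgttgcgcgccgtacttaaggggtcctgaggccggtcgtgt
Neurog2 upstream, chr3:127632886-127633134, plus strand: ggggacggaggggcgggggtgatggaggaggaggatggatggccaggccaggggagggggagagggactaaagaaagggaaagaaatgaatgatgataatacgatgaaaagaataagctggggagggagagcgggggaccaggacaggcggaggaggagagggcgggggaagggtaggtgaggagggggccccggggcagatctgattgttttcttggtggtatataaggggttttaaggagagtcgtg
Neurod1 upstream, chr2:79456786-79456886, minus strand: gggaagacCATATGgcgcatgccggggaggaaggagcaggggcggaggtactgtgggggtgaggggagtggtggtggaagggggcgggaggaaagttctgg
Pou4f1 upstream, chr14:104468000-104468249, minus strand: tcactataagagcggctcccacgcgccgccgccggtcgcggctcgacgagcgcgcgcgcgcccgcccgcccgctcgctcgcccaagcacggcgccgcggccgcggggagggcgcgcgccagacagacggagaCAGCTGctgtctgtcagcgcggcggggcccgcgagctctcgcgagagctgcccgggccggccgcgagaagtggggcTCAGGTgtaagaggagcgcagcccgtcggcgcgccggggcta

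Capitals mark every match to 5 motifs, sought on both strands: CAGATG, the E-box preferred by neurogenins and *Neurod1*, then CATATG as an E-box of the same family, then CAGCTG as an E-box of many bHLH factors, further TCAGGT as the core bound by *Six4* and its relatives, and finally TAATTA as the core of many homeodomain sites. No motif overlapped another. *Neurog1* holds TAATTA, 199 bases before its start site, a motif found in 4.84% of the 32851 windows over the same 250 bases. *Neurod1* holds CATATG 242 bases before its start site (3.46% of windows). *Pou4f1* holds CAGCTG 118 bases before its start site (13.0% of windows) and TCAGGT 42 bases before it (12.3% of windows). The bases of *Neurog2* hold 0 of the 5 motifs. Of the members whose bases are not shown, *Isl1* holds CAGCTG, and *Six4* holds none once bases inside its own annotated gene are left out. The E-box preferred by neurogenins, present in 14.4% of windows, matched in 0 of the 6 members with a window. The matches are letters in these windows and are not measured binding.

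*Neurog1* was measured at 5.85, 3.12 and 4.03 CPM in WT and at 3.20, 3.18 and 3.28 CPM in Het. The Het libraries were nearly equal, with a highest to lowest ratio of 1.03, while the WT libraries spread over a ratio of 1.88, and WT replicate 2 lay below every Het library. The WT mean was 4.33 ± 1.39 CPM and the Het mean 3.22 ± 0.0519 CPM (SD, *n* = 3 each). Its log2 fold change was −0.42 (95% interval −0.90 to 0.066, standard error 0.21, unadjusted *P* = 0.0823, adjusted *P* = 0.640, edgeR). Without WT replicate 1 it was −0.14 (adjusted *P* = 0.795, edgeR).

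*Neurog2*, the proneural factor of the epibranchial neurons, lies on chromosome 3 from 127633135 to 127635631. It was measured at 4.61, 3.59 and 2.89 CPM in WT and at 3.01, 3.10 and 3.47 CPM in Het. WT libraries were both the highest and the lowest of the 6, and the Het libraries lay between them. Its log2 fold change was −0.21 (95% interval −0.60 to 0.19, standard error 0.17, adjusted *P* = 0.777, edgeR) and −0.032 without WT replicate 1.

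*Neurod1*, the neuronal differentiation factor downstream of the neurogenins, had the largest fitted difference of the 8 and the lowest counts. It lies on chromosome 2 from 79452521 to 79456751, and its levels were 2.36, 0.800 and 1.35 CPM in WT and 0.616, 1.07 and 0.963 CPM in Het, from 86, 47 and 50 counts in WT and 26, 81 and 64 in Het. WT replicate 1 was 2.20 times the mean of the other WT libraries, and WT replicate 2 lay within the Het range. A log2 fold change of −0.71 was fitted, with a standard error of 0.40 and a 95% interval from −1.64 to 0.21, which allows a Het level of 0.322 to 1.16 times WT (adjusted *P* = 0.672, edgeR). Without WT replicate 1 the log2 fold change was −0.23 (standard error 0.31). *Neurod1* shares 201 bases of exon with *Cerkl* on the same strand, which had at most 7 counts in a library, and 154 bases with an antisense long non-coding RNA that has no row in the table, and their reads may not be told apart.

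Among the first neuronal factors, *Pou4f1* followed the neurogenic genes. It lies on chromosome 14 from 104461676 to 104467999 and marks sensory neurons and parts of the midbrain. Its levels were 5.38, 3.66 and 4.43 CPM in WT and 4.33, 3.51 and 3.81 CPM in Het. The highest library was WT replicate 1, the lowest was Het replicate 2, and the groups overlapped. Its log2 fold change was −0.21 (95% interval −0.57 to 0.16, standard error 0.16, adjusted *P* = 0.753, edgeR) and −0.062 without WT replicate 1.

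*Isl1*, a LIM-homeodomain factor of sensory and motor neurons and of cardiac progenitors, went the other way in WT replicate 1. It lies on chromosome 13 from 116298281 to 116309689 and was measured at 8.10, 15.8 and 14.9 CPM in WT and at 13.4, 14.6 and 15.4 CPM in Het. WT replicate 1 was at 0.529 of the mean of the other WT libraries, and the remaining 5 libraries lay close together. With all libraries its log2 fold change was 0.16 (95% interval −0.43 to 0.74, standard error 0.24, adjusted *P* = 0.889, edgeR) and −0.085 without WT replicate 1 (standard error 0.080). Its biological coefficient of variation was 0.208 against 0.0925 for genes of its level, a ratio at percentile 97.9 of all tested genes.

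**Figure D2:**
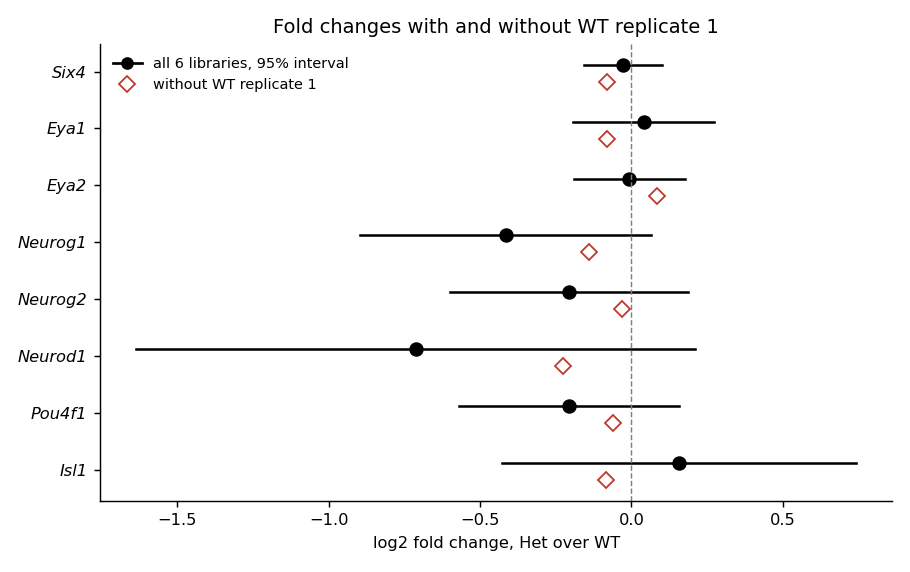
Log2 fold change of Het over WT (horizontal axis) for the 8 genes. Filled circles are the fit with all 6 libraries, with 95% intervals, and open diamonds the fit without WT replicate 1. Every interval crosses 0, and the values of *Neurog1*, *Neurog2*, *Neurod1*, *Pou4f1* and *Isl1* lie nearer 0 without that library.

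All 8 members had WT replicate 1 as their highest or lowest library, against 49.3% of all tested genes. It was the highest for 5 and the lowest for 3. With that library left out, 7 of the 8 were lower in Het, against 51% of the genes then tested, and the median log2 fold change of the members was −0.079. In that comparison, chosen after the data were seen, the Het libraries lay on the same side of the remaining WT libraries for 3 members, *Six4* and *Eya1* below and *Eya2* above, where 28.3% of all tested genes do so.

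Tissue markers also departed in WT replicate 1. The neural progenitor list (*Sox2*, *Nes*, *Otx2* and others) summed to 843.4 CPM in WT replicate 1 and to between 667.5 and 704.6 CPM in the other 5 libraries. The pharyngeal and second heart field list (*Tbx1*, *Tcf21*, *Nkx2-5* and others) summed to 73.3 CPM in WT replicate 1 and to between 101.1 and 119.3 CPM in the others. The cardiac muscle list summed to 13.2 CPM there, and to 38.5 to 154.3 CPM elsewhere. The surface ectoderm list (*Epcam*, *Krt18*, *Grhl2* and others) summed to 336.8 CPM there and to 454.6 to 461.2 CPM elsewhere. The pharyngeal endoderm list was also lowest there, at 25.4 CPM against 32.4 to 34.4 CPM elsewhere. *Isl1* and *Eya1* were low in the library that was low in heart field, surface ectoderm and pharyngeal endoderm genes. The neurogenic genes and *Pou4f1* were high in the library that was high in neural progenitor genes. *Six4* was lowest in WT replicate 1 at 58.3 CPM, but was nearly as low in Het replicate 1 at 58.6 CPM. In Het replicate 1 the heart field list summed to 101.1 CPM and the surface ectoderm list to 461.2 CPM. *Eya2* was high in WT replicate 1, unlike *Six4*, *Eya1* and the surface ectoderm list. The part of tissue composition in these levels was not tested. The 7 listed motor neuron genes summed to between 6.30 and 8.19 CPM in a library. The part of motor neurons in the level of *Isl1* was not tested.

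**Figure D3:**
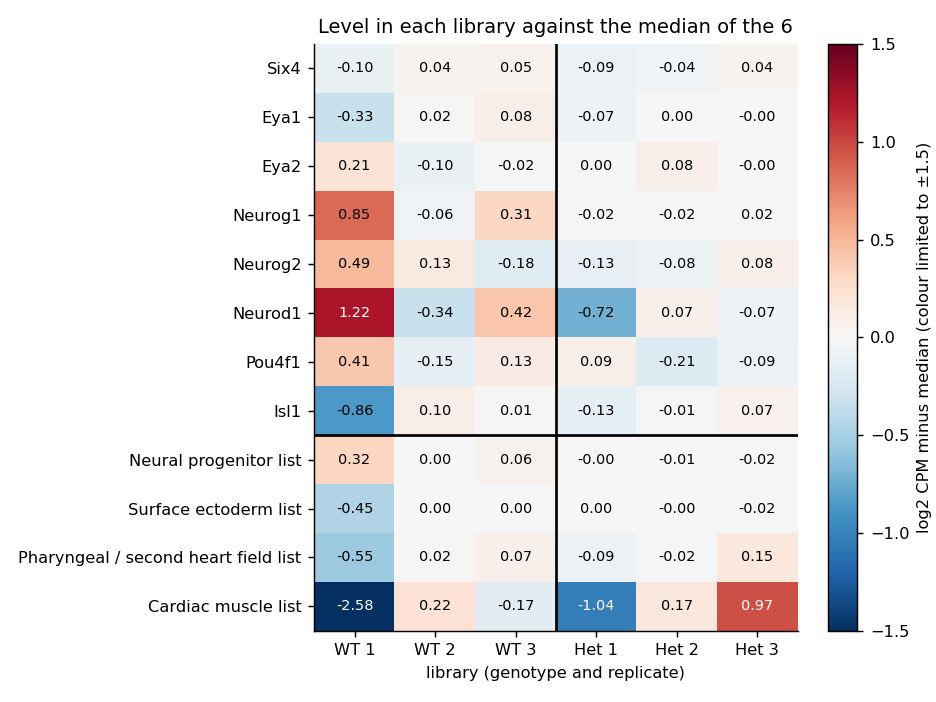
Log2 CPM of each gene, or of the summed genes of 4 marker lists, in each library minus the median of the 6 libraries (colour and printed value). WT replicate 1 departs most in *Neurod1* (1.22), *Isl1* (−0.86) and *Neurog1* (0.85) among the members and in the cardiac muscle list (−2.58) among the lists.

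Over the 6 libraries, the members formed an opposed pair of groups, and the opposition between them rested largely on WT replicate 1. Of 28 pairs, 7 had an unadjusted *P* under 0.05 and 0 had an adjusted one (exact permutation of log2 CPM, two-sided, Benjamini-Hochberg over the 28 pairs, lowest adjusted *P* = 0.0972). *Neurog1* and *Neurod1* had a Pearson correlation of 0.92 (exact permutation *P* = 0.0153, adjusted 0.107) and a Spearman correlation of 0.71 (exact permutation *P* = 0.136, adjusted 0.476), and Pearson's value was 0.25 without the 2 libraries farthest from the median of *Neurog1*. *Eya1* and *Isl1* had a Pearson correlation of 0.97 (exact permutation *P* = 0.0194, adjusted 0.109) and a Spearman correlation of 0.71 (exact permutation *P* = 0.136, adjusted 0.476), and Pearson's value was 0.93 without the 2 farthest libraries. *Neurog1* and *Isl1* had a Pearson correlation of −0.90 (exact permutation *P* = 0.0806, adjusted 0.200) and a Spearman correlation of −0.54 (exact permutation *P* = 0.297, adjusted 0.774), and Pearson's value was −0.12 without the 2 farthest libraries. Without WT replicate 1 alone, the Pearson correlation changed sign in 16 of the 28 pairs. It was then 0.73 for *Neurog1* and *Neurod1*, 0.64 for *Eya1* and *Isl1* and 0.027 for *Neurog1* and *Isl1*. The lowest *P* belonged to *Six4* with *Eya1* (Pearson correlation 0.78, exact permutation *P* = 0.00417, adjusted 0.0972). *Six4* with *Isl1* came next (Pearson correlation 0.73, exact permutation *P* = 0.00694, adjusted 0.0972). Without WT replicate 1, these correlations were 0.84 and 0.88.

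Ratios between successive genes of the cascade within a library, which do not depend on the scaling between libraries, showed the same spread. The count of *Neurod1* per count of *Neurog1* was 0.405, 0.259 and 0.338 in WT and 0.196, 0.336 and 0.295 in Het. On the log2 scale the mean was −1.61 ± 0.33 (SD, *n* = 3) in WT and −1.90 ± 0.41 (SD, *n* = 3) in Het, a difference of −0.29 (exact permutation *P* = 0.4, two-sided, adjusted 0.6 over 6 ratios, where 3 against 3 libraries allow no *P* below 0.1). With each library left out in turn it ran from −0.46 (without WT replicate 2) to −0.060 (without Het replicate 1), and it was −0.14 without WT replicate 1. The log2 ratio of *Isl1* to *Pou4f1* was 0.59, 2.10 and 1.74 in WT and 1.63, 2.05 and 2.01 in Het, with WT replicate 1 apart from the others. The difference of the means was 0.42 (exact permutation *P* = 0.7, adjusted 0.7) and −0.025 without WT replicate 1 and 0.73 without WT replicate 2. The other 4 ratios differed by −0.48 (*Neurod1* to *Neurog2*), 0.47 (*Pou4f1* to *Neurod1*), 0.19 (*Neurog2* to *Neurog1*) and 0.080 (*Eya1* to *Six4*), with exact permutation *P* between 0.3 and 0.6. With each library left out in turn, these differences ran from −0.86 (without WT replicate 2) to −0.26 (without WT replicate 1), from 0.15 (without Het replicate 1) to 0.72 (without WT replicate 2), from 0.055 (without WT replicate 3) to 0.40 (without WT replicate 2), and from 9.6e-05 (without WT replicate 1) to 0.13 (without WT replicate 3).

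Genes of neuronal differentiation beyond the members were mostly lower in Het, with 0 calls. Of 22 listed, 16 were tested, and 12 of these were lower and 4 higher, with a median log2 fold change of −0.60. Without WT replicate 1, 14 of the 16 were lower and 2 higher, and the median was −0.15. *Insm1*, a zinc finger factor of newly born neurons, was measured at 5.16, 2.78 and 3.49 CPM in WT and at 1.99, 1.71 and 2.38 CPM in Het, so that every Het library lay below every WT library. Its log2 fold change was −0.90 (unadjusted *P* = 0.00500, adjusted *P* = 0.433, edgeR) and −0.62 without WT replicate 1. *Myt1*, also a factor of early neurons, showed the same separation at 2.66, 0.954 and 1.76 CPM in WT and 0.781, 0.842 and 0.797 CPM in Het (log2 fold change −1.12, adjusted *P* = 0.439, edgeR, and −0.71 without WT replicate 1). *Neurod4* and *Nhlh1*, bHLH genes downstream of the neurogenins, had log2 fold changes of −1.09 and −1.40 (adjusted *P* = 0.624 and 0.594, edgeR), with overlapping groups, and of −0.61 and −0.58 without WT replicate 1. In both, WT replicate 1 was the highest library, at 3.21 CPM for *Neurod4* and 1.54 CPM for *Nhlh1*.

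Structural genes and receptors of neurons were also lower in fitted level. Of 16 genes, all tested, 0 were called, 14 were lower and 2 higher in Het, and the median log2 fold change was −0.23. In 6 of the 16, among them *Elavl3*, *Stmn3*, *Nefm*, *Cntn2* and *Ntrk3*, all Het libraries lay below all WT libraries, as in 6.92% of all tested genes, and 5 were lower at an unadjusted *P* under 0.05, as were 4.09% of all tested genes. Without WT replicate 1, 15 of the 16 were lower, the median was −0.17, and 6 again had all Het libraries below the WT libraries, which 13.5% of all tested genes then showed. *Stmn3*, a microtubule regulator of axons, was measured at 4.31, 3.63 and 3.54 CPM in WT and at 3.08, 2.79 and 2.90 CPM in Het (adjusted *P* = 0.465, edgeR, for a log2 fold change of −0.39). The RNA-binding protein gene *Elavl3* was measured at 7.91, 3.68 and 5.05 CPM in WT and at 2.75, 3.60 and 3.66 CPM in Het (log2 fold change −0.71, adjusted *P* = 0.550, edgeR, and −0.37 without WT replicate 1). *Ntrk3*, a neurotrophin receptor of sensory neurons and the neural tube, had a log2 fold change of −0.25 with and without that library (adjusted *P* = 0.557, edgeR, with all libraries). These genes are made by neurons of the neural tube as well as of the ganglia, and the neural progenitor list was also lower in all 8 of its tested genes (median log2 fold change −0.12, and −0.027 with 4 lower and 4 higher without WT replicate 1). The share of each tissue in the neuronal levels was not tested.

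**Figure D4:**
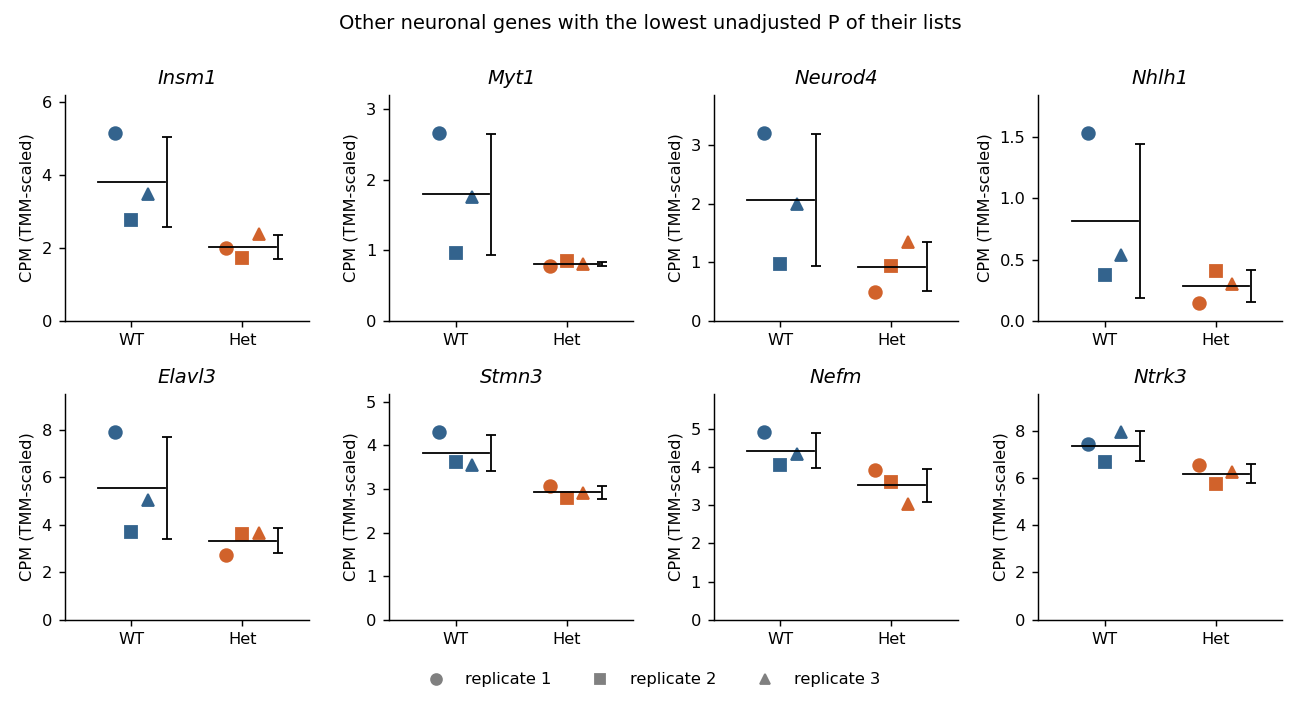
Level in CPM (vertical axes, each from 0) of 8 further neuronal genes with the lowest unadjusted *P* of their lists, in WT (blue) and Het (orange) libraries. Shapes give the replicate number, lines the mean and bars the SD over 3 libraries. Het libraries lie below all WT libraries in *Insm1*, *Myt1*, *Elavl3*, *Stmn3*, *Nefm* and *Ntrk3* and overlap them in *Neurod4* and *Nhlh1*, and no gene passed the adjusted threshold.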

How the data were processed

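RNA was depleted of ribosomal RNA by the authors, made into stranded libraries and mapped to mm10 with STAR. The paper names HTSeq for counting and the submitters' processing notes name featureCounts, and the strand setting is given in neither. The deposited values are raw counts per gene symbol, without normalization. No column was left out. Counts were fitted with edgeR (version 4.0.16, R version 4.3.3; TMM, filterByExpr, robust quasi-likelihood, no covariate), tested on simulated data first, and with DESeq2 (version 1.42.0), the authors' tool, as an alternative. Positions and exon lengths came from Gencode on mm10, and promoter sequences from RefSeq, for 6 of the 8 members. No library was a copy of another (chi-square per degree of freedom between 10.2 and 28.3). Intervals are 95% intervals of the log2 fold change, and their width rests on the spread between libraries. Log2 CPM used a prior count of 2, and ratios a pseudocount of 0.5 counts.

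The members and the 14 other gene lists were chosen with earlier results of these data known. Named were the 8 members, *Snrpb*, genes past the threshold in a list or else up to 4 with the lowest *P* at a mean of at least 0.5 CPM, overlapping neighbours, and the 3 genes most like each member at a mean of at least 1 CPM. *Cntn2* and the genes named only as examples of a list were named after their values were seen. A few genes that the rule names are not reported here.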

Additional observations from a re-analysis of the deposited data

How the results depend on the processing

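None of the 8 members passed the threshold in any of the 104 fits under the alternatives, and the lowest adjusted *P* among these was 0.309 (edgeR, *Neurog1* without WT replicate 2). The sign changed in 7 of the 104. *Six4* became 0.030 with the Y-linked level as a covariate, and *Eya2* became 0.0051 with library size only. Leaving out each library in turn gave log2 fold changes of −0.079 to −0.00035 for *Six4*, −0.079 to 0.12 for *Eya1*, −0.072 to 0.084 for *Eya2*, −0.62 to −0.14 for *Neurog1*, −0.35 to −0.032 for *Neurog2*, −1.04 to −0.23 for *Neurod1*, −0.34 to −0.062 for *Pou4f1*, −0.085 to 0.34 for *Isl1* and −0.026 to 0.019 for *Snrpb*. The number of members higher in Het ranged from 1 to 3, with 1 without WT replicate 1. DESeq2 called 84 genes and the fit without a filter on low counts 11, against 1, and 0 were called with the Y-linked level as a covariate. Leaving out a library gave between 0 and 6 calls, 6 without WT replicate 1 and 5 without Het replicate 1. *Snrpb* became 0.0074 with library size only. Without WT replicate 1, a choice made after the data were seen, 3 members in place of 0 had groups that did not overlap, and the correlation of *Neurog1* and *Isl1* became 0.027. The cause of these changes was not tested. The medians of the other lists without that library were −0.094 against −0.23 (motor neuron), 0.13 against 0.40 (pharyngeal and second heart field), 0.24 against 0.73 (cardiac muscle), −0.024 against 0.11 (surface ectoderm), −0.087 against 0.035 (pharyngeal endoderm), −0.0077 against 0.071 (neural crest), 0.091 against −0.070 (erythroid), 0.15 against 0.16 (posterior trunk) and 0.87 against 0.85 (Y-linked).

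Whether replicate numbers pair the libraries was not settled by the values. The numbers used here are those of the sample titles. In the headers of the count columns, the Het libraries carry numbers that no WT library has. Deviations of same-numbered libraries correlated between 0.032 and 0.36, and those of differently numbered libraries between −0.25 and 0.088. In all, 4 of 6 libraries correlated best with their own number. With a replicate block, the log2 fold changes were −0.029 for *Six4*, 0.049 for *Eya1*, −0.00067 for *Eya2*, −0.37 for *Neurog1*, −0.19 for *Neurog2*, −0.62 for *Neurod1*, −0.20 for *Pou4f1* and 0.20 for *Isl1*, 0 members passed and 1 gene was called in all. At 26 to 86 counts, *Neurod1* is limited by depth as well as by the spread between libraries.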

Other observations

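Among the 13138 other genes with a mean of at least 1 CPM, the 3 whose log2 CPM followed a member most closely over the 6 libraries were named by Pearson correlation for 7 of the 8 members, as a description with no test. In the placode network, *Cd81*, *Pigk* and *Stat5b* followed *Six4* with correlations of 0.985 and *Igfbp3*, *Pabpc4l* and *Rheb* followed *Eya1* with correlations from 0.991 to 0.995. Among the neurogenic genes, *Cdc25b*, *Rspo3* and *Heg1* followed *Neurog1* with correlations from 0.992 to 0.994, *Qsox1*, *Amigo1* and *Ube2cbp* followed *Neurog2* with correlations from 0.991 to 0.997 and *1810041L15Rik*, *Lrtm1* and *Chd3* followed *Neurod1* with correlations from 0.992 to 0.997. Among the neuronal factors, *Sap130*, *Foxp4* and *En2* followed *Pou4f1* with correlations from 0.992 to 0.993 and *Sowahb*, *Rgs5* and *Lsm6* followed *Isl1* with correlations from 0.992 to 0.997. With 6 libraries such values are common: *Isl1* had 167 genes with a correlation of at least 0.95, *Eya1* 124 and *Six4* 26. The genes most like *Neurog1*, *Neurod1* and *Pou4f1* had WT replicate 1 as their highest library, and those most like *Isl1* had it as their lowest. *Rspo3*, a secreted Wnt enhancer close to *Neurog1* in this ranking, was measured at 7.66, 2.61 and 4.41 CPM in WT and 2.56, 2.72 and 2.69 CPM in Het. *Rgs5*, a gene of pericytes and vessel walls close to *Isl1*, was measured at 1.10, 5.65 and 4.22 CPM in WT and 4.07, 4.30 and 5.13 CPM in Het. *En2*, a midbrain and hindbrain gene close to *Pou4f1*, was measured at 48.4, 28.7 and 34.7 CPM in WT and 34.4, 25.9 and 29.0 CPM in Het.

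Neural crest genes, which share the cranial ganglia with placode-derived neurons and arise in the cells where *Wnt1-Cre2* is active, gave 0 calls among 8 tested, with 7 higher and 1 lower in Het. Their summed level was 286.4, 344.2 and 375.3 CPM in WT and 351.1, 330.4 and 358.2 CPM in Het, with WT replicate 1 the lowest. Without WT replicate 1, 4 of the 8 neural crest genes were higher and 4 lower. Primitive erythroid genes summed to 1490.5 CPM in WT replicate 1 and to between 876.7 and 1211.4 CPM in the other libraries, and 0 of 6 tested were called.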
